A study of Mus musculus with 6 samples.

Results

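Reg3b, Reg1 and Saa1 are 3 secreted proteins made in the intestinal epithelium. They were chosen by name from the authors' deposited table, which holds 1386 genes and loci. The libraries came from epithelial cells of the intestine of Mus musculus with the genotype WT (wild type), fed normal chow. From 8 weeks of age the mice received 400000000 cells of the gut bacterium Akkermansia muciniphila (Akk), which feeds on mucus, by mouth every day for 7 weeks, and control mice received PBS, the carrier. Each group had 3 libraries, numbered 1 to 3, but no label ties a library to a separate animal. A p-value here thus sets the difference between groups only against the spread of these libraries, which may be technical. The title of the series asks about lipid absorption and AMPK in the jejunum, whereas the labels name the tissue only as intestinal epithelium.

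The table is a selection. Its largest authors' p-value was 0.0498 and its smallest fold 1.5. In Akk, 346 entries were given as higher and 1040 as lower. A gene entered it because it differed between these same 6 libraries, so the direction of each member was fixed by that choice and the tests of Akk against PBS reported here are no independent evidence. For a gene outside the table, a difference below the thresholds and a failure to measure it cannot be told apart. One control library, PBS replicate 2, had the top value of the 6 for 1022 of the 1040 genes listed as lower. The fold changes of the members are therefore also given without it. The depth implied by the ratio of count to FPKM was 23463925 to 29253852 fragments per library. Epithelial identity could not be checked on most of its markers, because of 15 enterocyte and epithelial markers only Apoa4 was in the table.

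Reg proteins are small C-type lectins. Those of the Reg3 group are secreted by enterocytes and Paneth cells into the lumen. There they bind bacterial surface carbohydrates and keep bacteria away from the epithelial surface. Reg3b is known for activity against Gram-negative bacteria and its close relative Reg3g for activity against Gram-positive bacteria. Both are known to depend on microbial colonisation, on Toll-like receptor signalling through MyD88, and on interleukin-22, which acts through the transcription factor STAT3. Reg1, or lithostathine, is best known from the exocrine pancreas and is also made in the small intestine. Saa1, serum amyloid A1, is an acute-phase apolipoprotein and retinol carrier made by the liver and by gut epithelium in contact with bacteria. In bulk RNA, a change in the number of cells of one type and a change of RNA per cell cannot be told apart.

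The lectin genes sit together on chromosome 6. In GENCODE M21 (GRCm38, the assembly that the mm10 build of the submitters' processing notes names), Reg3b (ENSMUSG00000071356) lies at chr6:78370657-78373466 on the plus strand and Reg1 (ENSMUSG00000059654) at chr6:78422711-78428667, also on the plus strand, 49244 bases downstream. Reg3g lies 37601 bases beyond Reg1 at chr6:78466269-78468872 on the minus strand, with Reg3d, Reg3a and Reg2 between Reg3b and Reg1. Saa1 (ENSMUSG00000074115) lies at chr7:46740497-46742980 on the minus strand, 8809 bases from Saa2. All 3 members are protein-coding genes.

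Sequence upstream of the RefSeq start sites is shown. It lets the start regions of genes listed in the same direction be compared, among them the paralogs Reg3b and Reg3g. The stretches come from RefSeq (GRCm38.p6), run 5′ to 3′ on the strand of the gene, and leave out bases that GENCODE places in an exon of the gene. They are chr6:78370707-78370860 (plus) for Reg3b, chr6:78468875-78469124 (minus) for Reg3g, chr6:78425733-78425929 (plus) for Reg1 and chr7:46742981-46743230 (minus) for Saa1. The Reg3b and Reg1 stretches lie inside the span that GENCODE gives the gene, which begins further upstream than the RefSeq start site. Capitals mark matches to the motifs described after the sequences.
Reg3b: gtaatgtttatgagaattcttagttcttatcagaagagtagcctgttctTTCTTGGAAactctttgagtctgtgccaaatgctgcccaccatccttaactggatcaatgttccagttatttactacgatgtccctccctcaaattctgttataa
Reg3g: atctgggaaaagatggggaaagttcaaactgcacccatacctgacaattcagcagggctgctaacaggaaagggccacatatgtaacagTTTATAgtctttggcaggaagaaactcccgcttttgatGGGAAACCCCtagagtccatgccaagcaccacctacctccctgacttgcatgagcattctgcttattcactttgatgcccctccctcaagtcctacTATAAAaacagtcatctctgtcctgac
Reg1: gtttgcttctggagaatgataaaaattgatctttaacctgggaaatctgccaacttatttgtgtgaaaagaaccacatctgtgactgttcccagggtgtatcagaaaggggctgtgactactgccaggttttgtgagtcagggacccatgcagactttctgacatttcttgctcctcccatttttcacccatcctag
Saa1: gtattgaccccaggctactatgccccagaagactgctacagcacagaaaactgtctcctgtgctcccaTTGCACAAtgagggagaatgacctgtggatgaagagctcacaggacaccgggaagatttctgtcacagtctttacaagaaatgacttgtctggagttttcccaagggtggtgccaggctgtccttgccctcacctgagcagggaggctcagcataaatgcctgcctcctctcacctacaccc

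Motifs were searched on both strands in the 250 bases before each RefSeq start site, counting back from -1. The STAT motif TTCNNNGAA was found in Reg3b alone among these 4 genes, at -129 to -121, and 7.02% of all 32851 RefSeq mouse start sites have a match in the same window. The TATA box TATAAA stood at -29 to -24 in Reg3b, -27 to -22 in Reg3g and -30 to -25 in Reg1 (12.4% of all start sites), and Reg3g had another match on the opposite strand at -161 to -156. The Reg3b and Reg1 matches overlap or lie beyond the annotated exon edge and are not in the printed stretch. The NF-kB motif was found in Reg3g alone, at -123 to -114 (7.25% of start sites). Neither the C/EBP consensus (0.0578% of start sites) nor any of these motifs was found in Saa1. The shorter C/EBP core TTGCNNAA, added after the sequences had been seen, matched Saa1 at -182 to -175 (9.56% of start sites). Over their 250 bases, the Reg3b and Reg3g windows were 68.4% identical, Reg3b and Reg1 48.7%, and Saa1 and Saa2 94.8%. These matches describe the letters and say nothing of binding.

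Reads could in principle be shared between family members, so the coding transcripts were compared. No stretch of 50 bases of the Reg3b transcript (783 bases) or the Reg1 transcript (769 bases) occurs in a transcript of another Reg gene of the cluster. Reg3b and Reg3g transcripts were 67.7% identical. For Saa1 (609 bases), 13.2% of its stretches of 50 bases also occur in transcripts of Saa2, and the 2 transcripts were 93.9% identical. The count of Saa1 may therefore hold reads of Saa2 or have lost reads to it, and its single values are uncertain. How the authors counted such reads is not given in the sources used here.

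Reg3b, the lectin directed at Gram-negative bacteria, was among the most abundant transcripts of the table, ranking 7 of 1386 by mean FPKM (fragments scaled to gene length and to sequencing depth, so that levels of different genes can be compared). Its FPKM was 1387, 2324 and 1557 in Akk replicates 1 to 3 and 596, 1391 and 1098 in PBS replicates 1 to 3. The groups overlapped: PBS replicate 2 lay just above Akk replicate 1, while Akk replicate 2 stood above all other libraries. The means were 1756 ± 499 in Akk and 1028 ± 402 in PBS (SD, n = 3), a ratio of 1.71. The underlying counts were 17148 to 70677, so counting error is small beside the spread between libraries: within PBS alone the highest library was 2.33 times the lowest.

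The quasi-likelihood test of edgeR gave Reg3b a log2 fold change (Akk over PBS) of 0.77 (SE 0.44, adjusted p = 0.141). None of the 1386 listed genes passed this test after Benjamini-Hochberg adjustment (0%), while 38 genes higher in Akk had an unadjusted p under 0.05. These were 2.74% of all listed genes and 11% of those listed as higher. Of the members, Reg1 and Saa1 were among these 38, and Reg3b was not. With TMM, RLE and upper-quartile factors from the listed genes, 255, 236 and 167 genes higher in Akk had an unadjusted p under 0.05. Reg3b was then among them (unadjusted p = 0.00944, 0.0115 and 0.0133). Its adjusted p by edgeR was 0.198, 0.212 and 0.153 with these factors, above the 0.141 without them. The factors rest on a selected table, in which 1040 of 1386 entries were listed as lower. The largest was that of PBS replicate 2, at 4.00, 4.39 and 3.06. The authors' deposited table gives Reg3b a log2 fold change of 1.10 with p = 0.000282. An exact two-sided permutation test of log2(FPKM + 0.1) gave p = 0.2, where 3 against 3 libraries cannot go below 0.1.

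Reg3b was the one member for which PBS replicate 2 was the highest PBS library, at 1.64 times the mean of the other 2. For the 346 genes listed as higher this ratio had a median of 0.889, and PBS replicate 2 was the highest PBS library for 102 of them (29.5%). In that library the summed FPKM of the 13 Paneth cell markers in the table (of 17 fixed) was 10004, against 245 and 276 in PBS replicates 1 and 3 and 185 to 219 in Akk. The part of the Paneth cell markers in the Reg3b level was not tested. Without PBS replicate 2, all Akk libraries exceeded both PBS libraries, as for 45.4% of the genes listed as higher, the ratio of means was 2.07, and the log2 fold change was 1.06 (SE 0.36, adjusted p = 0.0652 by edgeR). That fit passed 24 of the 346 genes listed as higher (6.94%), without Reg3b, and 246 of the 1040 listed as lower. Leaving out PBS replicate 1 or Akk replicate 2 lowered the Reg3b log2 fold change to 0.50 and 0.51.

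Reg1, lithostathine, was lower in level than Reg3b, ranking 90 of 1386. It had an FPKM of 112, 160 and 191 in Akk replicates 1 to 3 and 75.7, 48.5 and 90.8 in PBS replicates 1 to 3. Every Akk library lay above every PBS library, with the lowest Akk library 1.23 times the highest PBS library. Of the 346 genes listed as higher, 130 had no overlap in this direction (37.6%), so the separation of Reg1 is a common feature of this selected table. The means were 154 ± 39.96 and 71.7 ± 21.5 (SD, n = 3), a ratio of 2.15, from counts of 1266 to 5454.

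By edgeR the log2 fold change of Reg1 was 1.10 (SE 0.46, unadjusted p = 0.0431, adjusted p = 0.0861). That adjusted p was the smallest of the fit, and many listed genes shared it, Saa1 among them. The authors' deposited table lists Reg1 with a log2 fold change of 1.18 and p = 0.00225. The exact permutation test gave p = 0.1, the smallest it can give (adjusted p = 0.15 over the 3 members). PBS replicate 2 was the lowest library for Reg1, unlike for Reg3b, and without it the log2 fold change was 0.89 (SE 0.27, adjusted p = 0.0567 by edgeR). DESeq2 passed Reg1 (adjusted p = 0.03696), as it did 74 of the 346 genes listed as higher (21.4%) and 712 of the 1040 listed as lower.

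Saa1 was the least abundant member, ranking 719 of 1386, with the largest relative difference of the 3. Its FPKM was 6.08, 4.72 and 9.53 in Akk replicates 1 to 3 and 3.60, 0.998 and 0.622 in PBS replicates 1 to 3. The groups did not overlap, as for 37.6% of the genes listed as higher. Among the PBS libraries replicate 1 stood well above replicates 2 and 3. The read counts behind these levels were 156, 114 and 215 in Akk and 82, 21 and 15 in PBS. The exact 95% Poisson interval of PBS replicate 1 was 65.2 to 102 counts, above those of PBS replicate 2 (13.0 to 32.1) and PBS replicate 3 (8.40 to 24.7). The spread within PBS, 5.79-fold between the lowest and highest library, is thus larger than counting error, which is all that these intervals cover.

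The means of Saa1 were 6.78 ± 2.48 in Akk and 1.74 ± 1.62 in PBS (SD, n = 3), a ratio of 3.89, or 3.21 without PBS replicate 2. By edgeR its log2 fold change was 1.95 (SE 0.78, unadjusted p = 0.0355, adjusted p = 0.0861), the 18th largest of the 346 genes listed as higher. Reg1 was the 95th and Reg3b the 166th, against a median of 0.74 for those 346 genes. The authors' deposited table gives Saa1 a smaller log2 fold change of 1.33 with p = 0.00889. The exact permutation test gave p = 0.1, again the smallest possible.

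The call for Saa1 changed with 1 control library and with the test. Without PBS replicate 1 the log2 fold change became 3.04 (SE 0.78) and passed the edgeR threshold (adjusted p = 0.0391), in a fit that passed 11 of the 346 genes listed as higher (3.18%) and 723 of the 1040 listed as lower. Without PBS replicate 2 it was 1.68 (SE 0.69, adjusted p = 0.0866 by edgeR). DESeq2 passed Saa1 with all 6 libraries (adjusted p = 0.01697), as 1 of its 74 calls (21.4%) among the genes listed as higher. The liver is a main site of Saa1 synthesis, and of 8 liver markers Cps1 alone was in the table. Cps1, a urea cycle enzyme also made by enterocytes, had an FPKM of 17.0 to 19.5 in Akk and 49.5, 360 and 44.0 in PBS. The part of liver RNA in the Saa1 level was not tested.

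**Figure D1:**
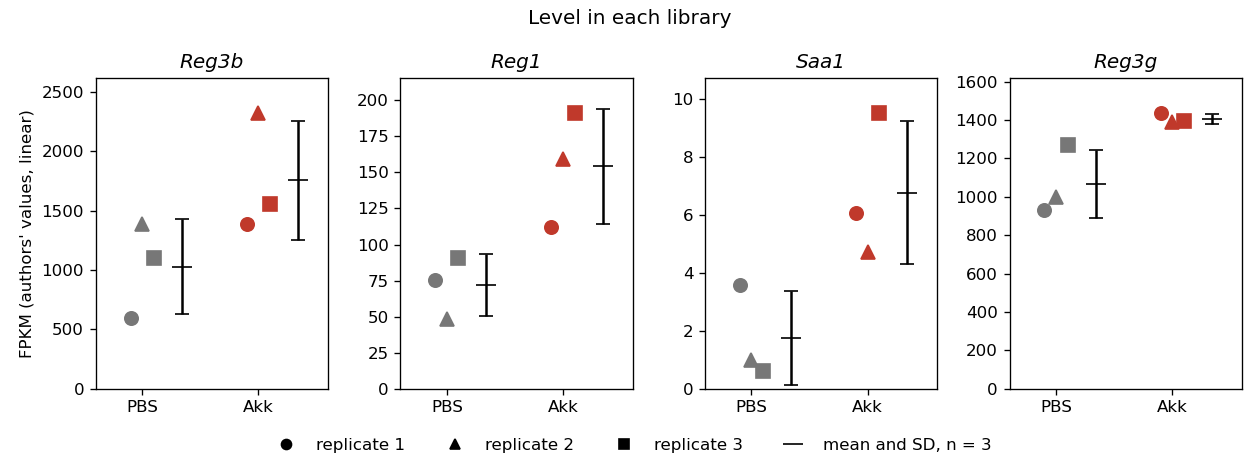
FPKM (vertical axes, linear, from 0) of Reg3b, Reg1, Saa1 and the related lectin Reg3g in each PBS (grey) and Akk (red) library; symbols give the replicate number, and black marks the mean and SD (n = 3). Reg1, Saa1 and Reg3g do not overlap between groups, as holds for 37.6% of the genes listed as higher. For Reg3b, PBS replicate 2 (1391) lies above Akk replicate 1 (1387).

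**Figure D2:**
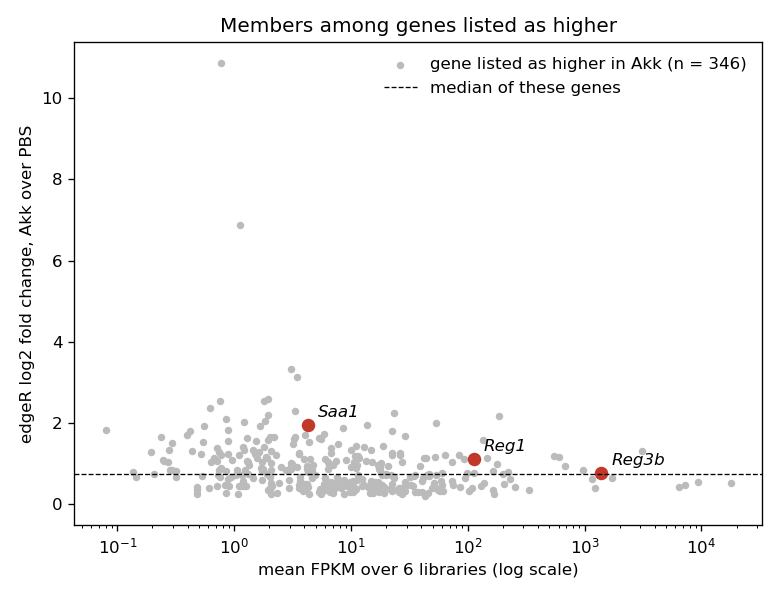
Fitted log2 fold change (vertical axis, edgeR, Akk over PBS) against mean FPKM over the 6 libraries (horizontal axis, log scale) for the 346 genes listed as higher in Akk, with the members in red and the median of all 346 dashed. Saa1 lies well above the median of 0.74 at a low level, and Reg3b lies close to it at a high level.

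Whether the members differed by unequal amounts was asked from ratios within a library, which do not depend on its depth. Reg3b exceeded Reg1 by 12.4, 14.6 and 8.14 times in FPKM in Akk replicates 1 to 3 and by 7.87, 28.7 and 12.1 times in PBS replicates 1 to 3. These ranges overlapped, and the mean log2 ratio was 3.51 ± 0.43 in Akk and 3.80 ± 0.95 in PBS (SD, n = 3; exact permutation p = 0.9). The high ratio in PBS replicate 2 comes from a high Reg3b beside a low Reg1, and without that library the difference of -0.30 turned to 0.22.

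The log2 ratio of Saa1 to Reg3b was -8.02 ± 0.81 in Akk and -9.40 ± 1.80 in PBS (SD, n = 3), a difference of 1.38 (SE 1.14, exact permutation p = 0.4). PBS replicate 1 had as high a ratio of these genes as any Akk library. For Saa1 to Reg1 the values were -4.51 ± 0.47 and -5.60 ± 1.32 (SD, n = 3), a difference of 1.09 (SE 0.81, exact permutation p = 0.2). Over the 3 pairs the adjusted p was 0.9, 0.6 and 0.6 in the order given. With all 6 libraries the larger fold of Saa1 was thus within the spread between libraries. When PBS replicate 1 was left out, the Saa1 to Reg3b difference was 2.42 (SE 0.49, exact permutation p = 0.1, the smallest possible). It was 0.93 when PBS replicate 2 was left out and 0.80 when PBS replicate 3 was. Leaving out the same libraries in turn, the Saa1 to Reg1 difference was 1.71, 1.15 and 0.40. With a pseudocount of 1 the differences were 0.79 and 0.51.

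**Figure D3:**
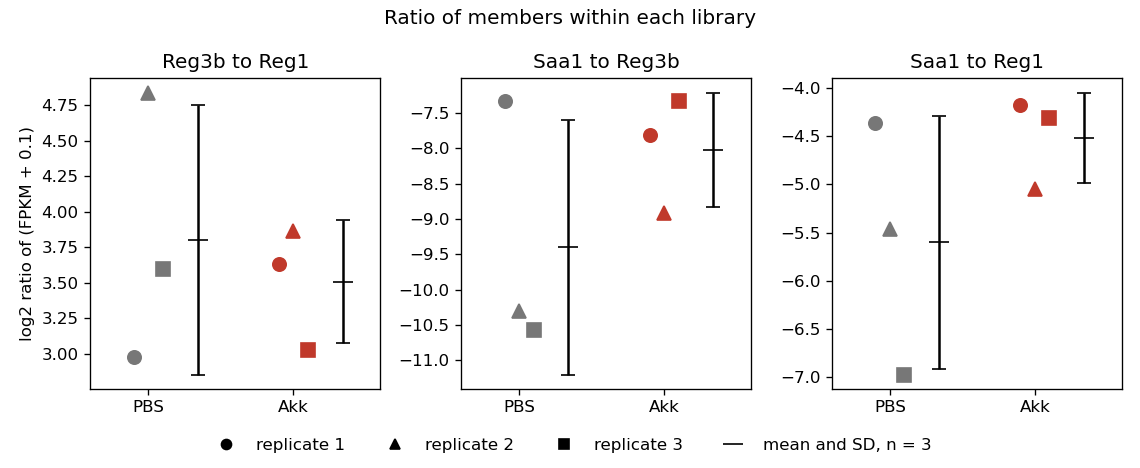
Log2 ratio of (FPKM + 0.1) between pairs of members within each library (vertical axes), by group, with the mean and SD (n = 3) in black. PBS replicate 3 lies within the range of the Akk libraries for Reg3b to Reg1, and PBS replicate 1 does for Saa1 to Reg1. For Saa1 to Reg3b, PBS replicate 1 (-7.331) lies just above the highest Akk library (-7.336).

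The members did not share one pattern over the 6 libraries. The Pearson correlation of log2(FPKM + 0.1) was 0.51 between Reg3b and Reg1, 0.24 between Reg3b and Saa1 and 0.73 between Reg1 and Saa1. These are descriptions over 6 libraries of genes that were selected for a group difference, which by itself makes genes of 1 direction correlate. Among the 1156 other listed genes with an identifier and a mean FPKM of at least 1, Reg3b was closest to Tnfrsf12a (0.96), the receptor of the cytokine TWEAK, then Ceacam2 (0.94), a cell adhesion molecule, and Ikbip (0.94). Like Reg3b, Tnfrsf12a was lowest in PBS replicate 1 (2.30 FPKM) and highest in Akk replicate 2 (6.32 FPKM).

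Reg1 was closest to Map7d1 (0.97), a microtubule-associated protein, and to a pair of purine nucleoside genes. These were Slc28a2 (0.97), a sodium-coupled nucleoside transporter, and Ada (0.96), adenosine deaminase. Ada had an FPKM of 101, 326 and 492 in Akk replicates 1 to 3 and 39.5, 23.1 and 139.8 in PBS replicates 1 to 3, highest in Akk replicate 3 and lowest in PBS replicate 2 as Reg1 was. Saa1 was closest to the mitochondrial transcript mt-Nd4l (0.94), to Bco1 (0.93), the beta-carotene oxygenase of retinoid synthesis, and to Trib1 (0.92), a pseudokinase. Bco1 had 10.9, 5.84 and 8.18 FPKM in Akk and 4.56, 1.58 and 2.13 in PBS.

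Genes that mark the position along the intestine also differed between libraries. Of 12 proximal genes, S100g, a calcium carrier, Slc40a1, the iron exporter, Cybrd1, an iron reductase, and Bco1 were listed, all as higher in Akk. The first 3 were highest in Akk replicate 3, where S100g reached 97.7 FPKM against 3.62 to 12.9 in the other libraries. Bco1 was highest in Akk replicate 1, at 10.9 FPKM. Cybrd1 was low throughout, at 0.805 FPKM in Akk replicate 3. Akk replicate 3 was also the highest library for Reg1 and Saa1. Of 12 distal genes, Car4, a carbonic anhydrase, and Aqp4, a water channel, were listed as lower. Car4 had 88.4, 119 and 171 FPKM in Akk replicates 1 to 3 and 265 to 329.8 in PBS. Within Akk, this distal gene was thus also highest in replicate 3. Aqp4 had 0.058 to 0.156 FPKM in Akk and 0.307, 9.11 and 0.408 in PBS replicates 1 to 3. Its log2 fold change moved from -4.72 to -1.58 without PBS replicate 2. The part of position along the intestine in the levels of Reg1 and Saa1 was not tested. Without Akk replicate 3 the log2 fold changes of Reg1 and Saa1 were 0.92 and 1.63 (adjusted p = 0.191 and 0.187 by edgeR).

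In the wider Reg and Saa families, 4 of 11 genes were in the table, all listed as higher: the 3 members and Reg3g. Reg3g, the lectin directed at Gram-positive bacteria, had an FPKM of 1437, 1388 and 1396 in Akk replicates 1 to 3 and 932, 998 and 1270 in PBS replicates 1 to 3. The Akk libraries were nearly level with each other and all above PBS, as for 37.6% of the genes listed as higher, but the difference was small. The means were 1407 ± 26.3 and 1067 ± 179 (SD, n = 3), with a log2 fold change of 0.40 (SE 0.34, adjusted p = 0.298 by edgeR), or 0.35 without PBS replicate 2. The median log2 fold change of the 4 was 0.94, or 0.97 without PBS replicate 2, beside 0.74 and 0.70 over all genes listed as higher. Reg2, Reg3a, Reg3d, Reg4, Saa2, Saa3 and Saa4 were not in the table.

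Of 29 epithelial defence effectors, 9 were in the table, of which Akk was given as higher for 5 and lower for 4, and none passed the edgeR test. Beside the 4 Reg and Saa genes, Zg16, a goblet cell lectin that binds Gram-positive bacteria, was listed as higher, with 1705, 1198 and 1269 FPKM in Akk replicates 1 to 3 and 845, 668 and 1205 in PBS. Its groups overlapped. The 4 listed as lower were the Paneth cell products Ang4, Itln1 and Lyz1 and the peptidoglycan recognition protein Pglyrp1, each highest in PBS replicate 2. Lyz1, lysozyme, had 17.6 to 25.5 FPKM in Akk and 27.4, 978 and 28.8 in PBS. For Itln1, intelectin, leaving out PBS replicate 2 moved the log2 fold change from -2.99 to 0.09.

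Without PBS replicate 2, Pglyrp1 passed as 1 of the 9 effectors, in the direction opposite to the lectins. That fit passed 23.7% of all genes listed as lower, so 1 of 4 effectors listed as lower is near the background. It had 26.0, 24.5 and 24.0 FPKM in Akk replicates 1 to 3 and 42.7, 77.2 and 40.9 in PBS replicates 1 to 3. Its log2 fold change was -1.11 (SE 0.53, adjusted p = 0.0966 by edgeR), and -0.75 (SE 0.18, adjusted p = 0.0429) without PBS replicate 2. Ang4, an angiogenin with antimicrobial activity, moved from -3.92 to -0.53 when PBS replicate 2 was left out.

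The upstream pathways of Reg3b and Saa1 were almost absent from the table. Of 15 genes of interleukin-22 and STAT3 signalling, among them Il22ra1, Stat3 and Socs3, 0 were listed. Of 25 genes of Toll-like receptor, MyD88 and NF-kB signalling, Nfkbiz, a nuclear IkB protein, was the one listed. It had an FPKM of 26.4, 21.4 and 15.3 in Akk replicates 1 to 3 and 15.3, 20.3 and 16.7 in PBS replicates 1 to 3. Its groups overlapped, and its log2 fold change was 0.27 (SE 0.44, adjusted p = 0.563 by edgeR).

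Other cells that make Reg1, Reg3b or Saa1, or that could carry RNA into the samples, were checked with fixed marker lists. Of 16 pancreatic acinar markers, Clps, colipase, alone was listed, at 2.27 to 2.45 FPKM in Akk and 1.24, 66.1 and 1.56 in PBS. Its log2 fold change went from -3.25 to 0.75 without PBS replicate 2. Ptprc and Cd3e, which define leukocytes and T cells, were not in the table. Of 12 goblet cell markers, Muc13 and Zg16 had higher values listed in Akk and Clca3b lower ones, the last with 266 FPKM in PBS replicate 2. The part of these cells in the member levels was not tested.

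**Figure D4:**
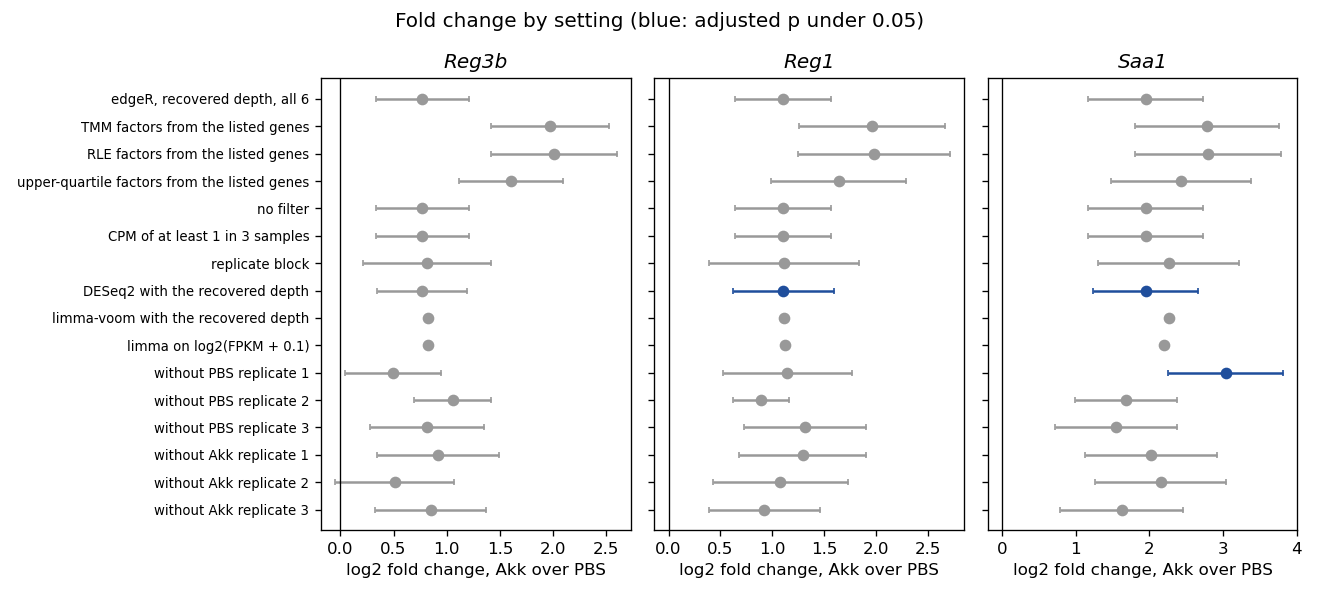
Log2 fold change (Akk over PBS) of Reg3b, Reg1 and Saa1 under each setting of the test; bars are 1 SE, with none drawn for the 2 limma fits, and blue marks an adjusted p under 0.05. All values are above 0, the direction for which these genes were listed. The blue points are DESeq2 for Reg1 and Saa1 and the fit without PBS replicate 1 for Saa1.

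The size of each difference depended on the scaling. Factors computed from the listed genes raised the log2 fold changes of Reg3b, Reg1 and Saa1 to 1.97, 1.96 and 2.78 with TMM. The same factors moved the median of all 1386 genes from -1.85 to -0.21, a shift larger than that of any member. Relative to that median the members thus lay lower under TMM than with the recovered depth. No setting turned the sign of a member's fold change, a sign that the selection of the table had fixed.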

How the data were processed

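RNA-seq of intestinal epithelial cells was compared between 3 Akk and 3 PBS libraries. The authors deposited whole-number read counts and FPKM for each library, with their own p-value and log2 fold change of Akk over PBS, per the file headers. RNA was extracted with Trizol for an Illumina mRNA library, per the labels' protocols, and the build is mm10, per the submitters' processing notes. How reads were aligned and counted, whether by strand, and which test gave the authors' p-value (adjusted or not) is not stated in these sources. Of the lines, 2 hold annotation text only and were left out, and 1 gene name that read as a date was replaced through its Ensembl identifier.

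Depth was recovered from count over FPKM of 560 genes with a count of at least 200 in each library, and set to scale with the exon length of 548 of them. The quasi-likelihood test of edgeR 4.0.16 (R 4.3.3) was run on the counts of all 1386 entries with that depth as library size, Benjamini-Hochberg adjustment and a threshold of 0.05. The SE is the log2 fold change divided by the square root of F. The script was run on simulated data with less spread between libraries than here, as a check of the code only. Single values and ratios were tested by exact two-sided permutation of log2(FPKM + 0.1). Alternatives were TMM, RLE and upper-quartile factors, 2 other count filters, the replicate block, DESeq2 1.42.0, limma 3.58.1 (voom, and log2 FPKM), pseudocounts of 0.01 and 1, CPM in place of FPKM, and each library left out. Named are the members, all listed genes of the family, signalling, sensing and effector lists, up to 4 of each other list, and the 3 genes closest to each member. Paneth cell markers are given as a sum. The members and lists were chosen with earlier results of these data known. Some members of the lists are left out of the text.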

Additional observations from a re-analysis of the deposited data

How the results depend on the processing

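The sign of the log2 fold change of Reg3b, Reg1 and Saa1 was positive under all 15 alternatives of each. That direction was fixed by the selection of the table, so its constancy is no evidence of a difference. Adjusted p ranged from 0.0652 to 0.445 for Reg3b, from 0.03696 to 0.265 for Reg1 and from 0.01697 to 0.228 for Saa1. DESeq2 passed Reg1 (1.10) and Saa1 (1.95). With each library left out in turn the log2 fold change was 0.50 to 1.06 for Reg3b, 0.89 to 1.31 for Reg1 and 1.55 to 3.04 for Saa1. The count of 0 genes past the edgeR threshold, beside 791 with an unadjusted p under 0.05, became 786 with DESeq2 (262 adjusted p were NA), 2 with limma-voom, 1 with limma on log2(FPKM + 0.1), 6 with the replicate block and 0 to 734 with a library left out; the cause was not tested. The count filters removed no gene and say nothing about stability. RLE and upper-quartile factors gave 2.01 and 1.61 for Reg3b, 1.98 and 1.64 for Reg1, and 2.80 and 2.43 for Saa1.

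The difference in the log2 ratio of Reg3b to Reg1 (-0.30) was reversed without PBS replicate 2 (0.22), and ranged from -0.71 to 0.22 with each library left out. The differences of mean log2 FPKM kept their sign, which the selection had fixed, in 10 of 10 alternatives for each member. The differences in the other ratios also kept their sign in 10 of 10. Same-numbered libraries correlated in their deviations from the group means at 0.24, -0.09 and -0.31, so the numbers were not taken as pairs. With the replicate block, the log2 fold changes were 0.82, 1.12 and 2.26 for Reg3b, Reg1 and Saa1 (adjusted p = 0.276, 0.265 and 0.228 by edgeR), and permuting within numbers gave p = 0.25 for each, the smallest that exact test can give. Depth limits Saa1 most, at 15 and 21 counts in its lowest libraries.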
